A study of Mus musculus with 2 samples.

Results

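The cytosolic ribosomal protein genes are described here as 86 of 32286 measured features. They were chosen by symbol alone: Rpl or Rps followed by a digit, Rplp0 to Rplp2 and Rpsa, leaving out 5 features with a pseudogene name and 10 rows named for Rps6k kinases or their relatives. The rule also took in Rps19bp1, which encodes a binding partner of the Rps19 protein and no ribosomal protein, and Rpl7l1, a nucleolar relative of Rpl7. Genes of ribosomal proteins that carry other symbols are outside the rule. Lung cells of BALB/c mice bearing 4T1 mammary carcinoma tumours, started in the mammary fat pad, were profiled on day 14 by droplet single-cell RNA sequencing of transcript 5′ ends. One library came from mice given an IgG antibody and 1 from mice given the S100A4-11 antibody; all carried tumours, and how many animals stand behind a library is not stated in the labels. With 1 library per group there is no replicate check, so no test was made. Ratios are S100A4-11 over IgG, and intervals in parentheses are exact 95% intervals that cover counting error only.

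The IgG library held 85458143 unique molecular identifiers (UMIs, counted molecules) in 14411 barcodes, and the S100A4-11 library 64695542 in 12506. After filtering, 13658 and 11750 cells remained, with medians of 4028 and 3661 UMIs per cell, and 266 barcodes occurred in both libraries. Clusters were made without ribosomal protein genes and named "-like" from marker genes; 13 classes had at least 100 cells in each library, and 7 clusters with 9.42% and 7.97% of cells stayed unnamed. One of these held 201 IgG cells and 3 S100A4-11 cells and enters the values over all cells only. The labels name lung as the tissue, except for a protocol that speaks of tumour tissue; lung classes such as type 2 alveolar epithelial-like cells were found.

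A cytosolic ribosome joins a small subunit, which reads the messenger RNA, to a large subunit, which forms the peptide bond, and the ribosomal proteins are needed in about equal numbers. Many of their messenger RNAs open with a C followed by a run of pyrimidines, the terminal oligopyrimidine (TOP) motif, through which mTOR and LARP1 control their translation. Their transcripts are abundant in resting lymphocytes and scarce in mature neutrophils, cells with few ribosomes.

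The starts of members on which the results below turn are shown first, from 10 bases before to 20 bases from the annotated RefSeq start (build GRCm38.p6, the mm10 assembly), 5′ to 3′ on the gene's strand. Capitals mark a C that is preceded by no pyrimidine, lies within 5 bases either side of the start and is followed by at least 4 C or T; only the gene's own strand was searched. Rps27 and Rps27rt are shown as a copy pair that differed in direction between the libraries, Rps21, Rpl39, Rpl38 and Rps28 as members higher in the S100A4-11 library, and Rps18 and Rps9 for their values below. Rps21 has a second annotated start, not shown, without such a run. Of the other members higher in all classes, Rpl37, Rpl37a, Rpl41 and Rpl6 had no such run. Rps29 and Rpl36 were not found in the RefSeq table.
Rps27: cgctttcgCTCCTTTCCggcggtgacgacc
Rps27rt: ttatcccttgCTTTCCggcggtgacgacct
Rps21: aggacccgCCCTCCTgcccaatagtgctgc
Rpl39: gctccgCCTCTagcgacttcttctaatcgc
Rpl38: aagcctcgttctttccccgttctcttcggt
Rps28: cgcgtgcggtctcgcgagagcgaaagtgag
Rps18: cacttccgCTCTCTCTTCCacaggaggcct
Rps9: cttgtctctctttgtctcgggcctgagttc
These windows lie at chr3:90213629-90213658 (minus strand) for Rps27, chr9:114982720-114982749 (minus) for Rps27rt, chr2:180257369-180257398 (plus) for Rps21 and chrX:37085203-37085232 (minus) for Rpl39. They lie at chr11:114668570-114668599 (plus) for Rpl38, chr17:33824543-33824572 (minus) for Rps28, chr17:33955646-33955675 (minus) for Rps18 and chr7:3704031-3704060 (plus) for Rps9. Each window spans the end of the promoter and the first transcribed bases. The Rps27 and Rps27rt windows share a run of 19 bases, ctttccggcggtgacgacc, so the 2 genes open alike. Of 66 members found by symbol in the RefSeq table, 18 (27.3%) opened with such a run at an annotated start, against 14.5% of 27025 genes in the table. Annotated starts need not be the starts used in these cells, and a match is a description only.

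Ribosomal protein transcripts made up very different shares of the classes, and the order of the classes was nearly the same in both libraries. They were the largest share in lymphocytes, with 30.5% of UMIs in IgG and 30.3% in S100A4-11 T cell-like cells, and 21.9% and 23.1% in B cell-like cells. The smallest shares were in neutrophil-like cells, at 2.07% and 2.09%, and in immature granulocyte-like cells, at 2.49% and 2.64%. The T cell-like share was thus 14.7 times the neutrophil-like share in the IgG library and 14.5 times in the S100A4-11 library. Mononuclear phagocytes lay between, at 14.5% and 15.1% in interstitial macrophage-like, 13.9% and 14.7% in classical monocyte-like, 12.9% and 12.7% in alveolar macrophage-like and 12.6% in both libraries in nonclassical monocyte-like cells. NK cell-like cells, at 12.1% and 12.5%, were far below the other lymphocytes. Structural classes were lower: 9.21% and 10.5% in fibroblast-like, 8.05% and 8.56% in pericyte or smooth muscle cell-like, 7.76% and 8.69% in type 2 alveolar epithelial-like and 7.35% and 8.20% in endothelial-like cells.

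**Figure D1:**
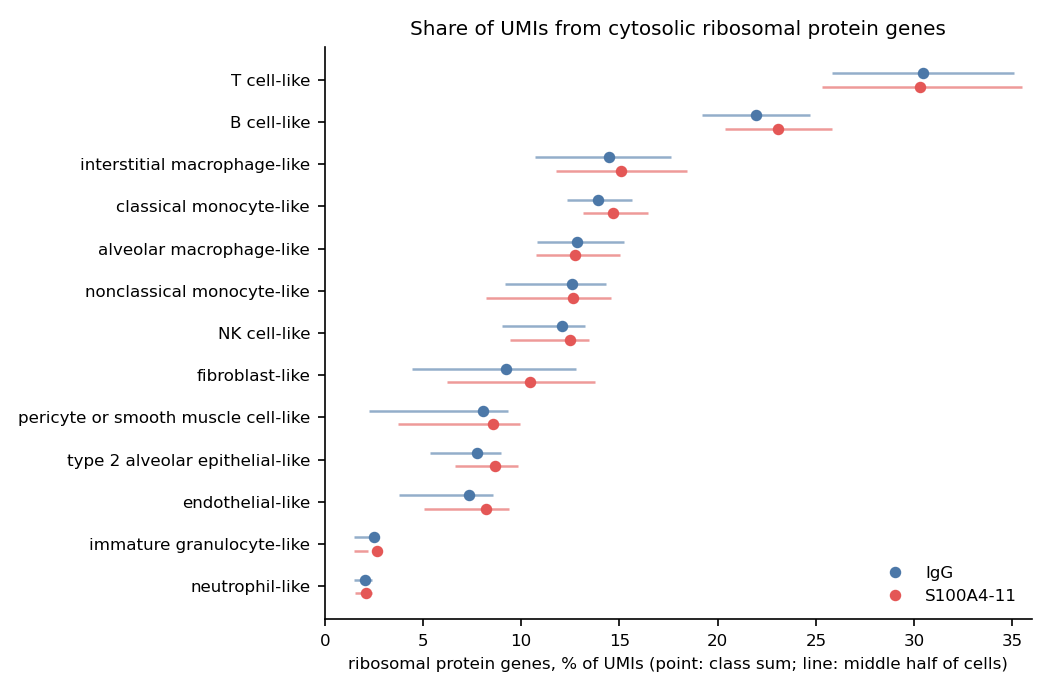
Percent of UMIs from ribosomal protein genes (horizontal axis) in 13 cell classes (vertical axis). Points are the share in the summed UMIs of a class, blue for IgG and red for S100A4-11, and lines span the quartiles of single cells; the T cell-like points lie near 30% and both granulocyte classes under 3%.

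Single cells spread around these sums. In immature granulocyte-like cells the median cell held 1.80% and 1.79%, below the class sum, and the 95th percentile reached 5.73% and 6.88%. Among endothelial-like cells the median share was higher in deeper cells, at 2.28% and 2.19% in cells with 500 to 1000 UMIs, 7.38% and 8.43% in cells with 4000 to 8000 and 7.97% and 8.31% in cells with 8000 UMIs or more. Neutrophil-like medians were 0.924% and 1.14% at 500 to 1000 UMIs, 1.96% and 2.004% at 1000 to 2000 UMIs and 1.82% and 1.86% at 8000 or more.

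The share was higher in the S100A4-11 library over all cells, at 11.1% against 9.54%, a ratio of 1.16 (1.16 to 1.16). In 11 of 13 classes the ratio had an interval above 1, and the sizes ran from 0.990 in alveolar macrophage-like cells to 1.14 in fibroblast-like cells. Fibroblast-like (1.14, 1.13 to 1.14), type 2 alveolar epithelial-like (1.12, 1.11 to 1.13) and endothelial-like cells (1.12, 1.11 to 1.12) had the largest ratios. The ratio was 1.05 in B cell-like and classical monocyte-like cells and 1.06 in immature granulocyte-like and pericyte or smooth muscle cell-like cells. It was 1.04 in interstitial macrophage-like, 1.03 in NK cell-like, 1.01 in neutrophil-like and 1.005 (1.0003 to 1.009) in nonclassical monocyte-like cells. T cell-like (0.995, 0.992 to 0.998) and alveolar macrophage-like cells (0.990, 0.986 to 0.993) had the only ratios with an interval below 1. With deep counts these intervals are narrow, and differences of a few percent can change with cell handling: with every cell weighing the same the T cell-like ratio was 1.01 and the nonclassical monocyte-like ratio 0.966.

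The libraries also differed in which cells they held. With the clusters given the same weight in both libraries, the all-cell ratio was 1.04, the fibroblast-like ratio 1.03, the pericyte or smooth muscle cell-like ratio 1.05 and the endothelial-like ratio 1.08, so fibroblast-like cells no longer had the largest ratio. Of 5 fibroblast-like clusters 2 had a lower share in the S100A4-11 library, one led by Hs6st3 and Fat3 (0.898, 0.875 to 0.922) and one led by Smim41 and Cdo1 (0.978, 0.962 to 0.994). Cells with a very low share, below a limit set from the median of their class over both libraries (2.31% in endothelial-like cells), were 18.5% (17.2 to 19.9) of IgG endothelial-like cells and 11.6% (10.4 to 12.9) of S100A4-11 endothelial-like cells. They were 6.50% and 2.68% of B cell-like, 21.9% and 17.3% of fibroblast-like and 15.5% and 9.94% of type 2 alveolar epithelial-like cells. In nonclassical monocyte-like cells the order was the other way, 10.2% and 14.1%. Such endothelial-like cells had fewer UMIs, with medians of 2018 and 1205 against 4314 and 4117 in the other cells, and more of the nuclear transcript Malat1, 2.16% and 2.35% of UMIs against 0.528% and 0.546%. One endothelial-like cluster, led by Adgrl3 and Pknox2, held 624 IgG and 332 S100A4-11 cells at 4.12% and 4.94%, below the other 4 endothelial-like clusters.

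RNA quality and handling markers also differed between the libraries, with no single direction relative to these shares. Mitochondrial genes made up 1.80% and 1.998% of UMIs in endothelial-like cells, 2.36% and 2.81% in type 2 alveolar epithelial-like cells and 1.85% and 1.80% in T cell-like cells. They made up 2.13% and 2.22% in alveolar macrophage-like and 1.29% and 1.16% in NK cell-like cells. Of 18 dissociation stress genes, 8 were at least 1.5-fold lower in S100A4-11 endothelial-like cells and none higher (median log2 ratio -0.51, against -0.01 over all genes), where 4.27% of all genes were past that fold. Atf3, an immediate early transcription factor, was 396 and 206 UMIs per 1000000 UMIs of the class (CPM) there, and the heat shock gene Hsph1 166 and 63.9 CPM. In T cell-like cells 3 stress genes were past 1.5-fold higher, for which 2.28% of all genes were, and 1 lower; Hspa1a stood at 265 and 469 CPM. The median log2 ratio of the stress genes was 0.07 in T cell-like cells. It was 0.26 in NK cell-like cells, where the share ratio of the members was 1.03. In alveolar macrophage-like cells it was -0.17, with a share ratio of 0.990. The part of these markers in the ribosomal protein values was not tested.

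Gene by gene, few members differed by much, and over all cells those past the fold encode small proteins. Past the fold means 1.5-fold or more in either direction and an interval that leaves out 1, among genes with at least 20 UMIs in the class. Over all cells 3 of 85 members were called higher, Rps29, Rps28 and Rpl38, where 2.88% of all genes were, and none of 85 was called lower, where 7.81% of all genes were. Over the 13 classes 11 of 1085 pairs of member and class were called higher, where 2.06% of all pairs were, and none lower, where 4.25% were. The members' share past the fold was therefore below the background in both directions within classes. The background takes in genes with as few as 20 UMIs, whose ratios scatter more. Most members were counted more deeply, 77 of them with at least 100 UMIs in every class and library. At 1.2-fold, 14 of 85 members were higher over all cells, with a background of 7.01%. Over the classes 94 of 1085 pairs were higher at that fold, with a background of 4.36%, and 17 lower, with a background of 7.99%.

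Rps29, a zinc-binding protein of the small subunit, was the member with the largest ratio over the classes. Over all cells it stood at 1695 CPM in the IgG library and 2829 CPM in the S100A4-11 library. Fibroblast-like cells held 1305 and 2160 CPM, T cell-like cells 5674 and 7826 CPM and neutrophil-like cells 539 and 764 CPM. The level was higher in the S100A4-11 library in all 13 classes, with ratios from 1.38 (T cell-like, 1.35 to 1.41) to 1.65 (fibroblast-like, 1.60 to 1.71). It was past 1.5-fold in B cell-like (1.33% of all genes were higher there), classical monocyte-like (1.93%), endothelial-like (1.43%), fibroblast-like (1.7%), immature granulocyte-like (4.18%) and type 2 alveolar epithelial-like cells (2.35%).

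Rps28, which lies near the messenger RNA exit of the small subunit, held 1404 and 2172 CPM over all cells, with class ratios from 1.28 to 1.59. Rpl38, a large-subunit protein known for its part in the translation of Hox transcripts, held 886 and 1340 CPM, with class ratios from 1.30 to 1.52. Both passed 1.5-fold in fibroblast-like and type 2 alveolar epithelial-like cells, besides Rps29; in type 2 cells Rps28 stood at 1224 and 1945 CPM and Rpl38 at 730 and 1105 CPM. The all-gene median log2 ratio in type 2 alveolar epithelial-like cells was -0.12, and trimmed-mean scaling raised all log2 ratios there by 0.13. In every class these 3 genes were thus higher in the S100A4-11 library, and their sizes differed between classes.

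An interval above 1 in all 13 classes was found for 11 of 83 members measured in every class, where 0.239% of 6268 genes did. With trimmed-mean scaling or doublets kept the count was 9. This rule sets no fold, and deeply counted genes pass it with small differences, such as Rpl39 with class ratios of 1.06 to 1.18. Genes needed only 20 UMIs in a class, while 77 members had at least 100 in every class and library. Genes of like depth were not compared. After the 3 above they were Rps27 (median ratio over classes 1.30), Rps21 (1.29), Rpl37 (1.19), Rpl37a (1.17), Rpl41 (1.16), Rpl6 (1.15), Rpl36 (1.14) and Rpl39 (1.12). Rps27, a zinc-finger protein of the small subunit, held 1740 and 2591 CPM over all cells. Rpl41, the smallest ribosomal protein, held 3074 and 3826 CPM. No member had an interval below 1 in all 13 classes, where 0.0319% of genes did. Outside the group, genes higher in all classes included Gm11808, Cdk8 and AY036118, and the 2 lower were mt-Atp8 and the airway secretory gene Scgb1a1.

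**Figure D2:**
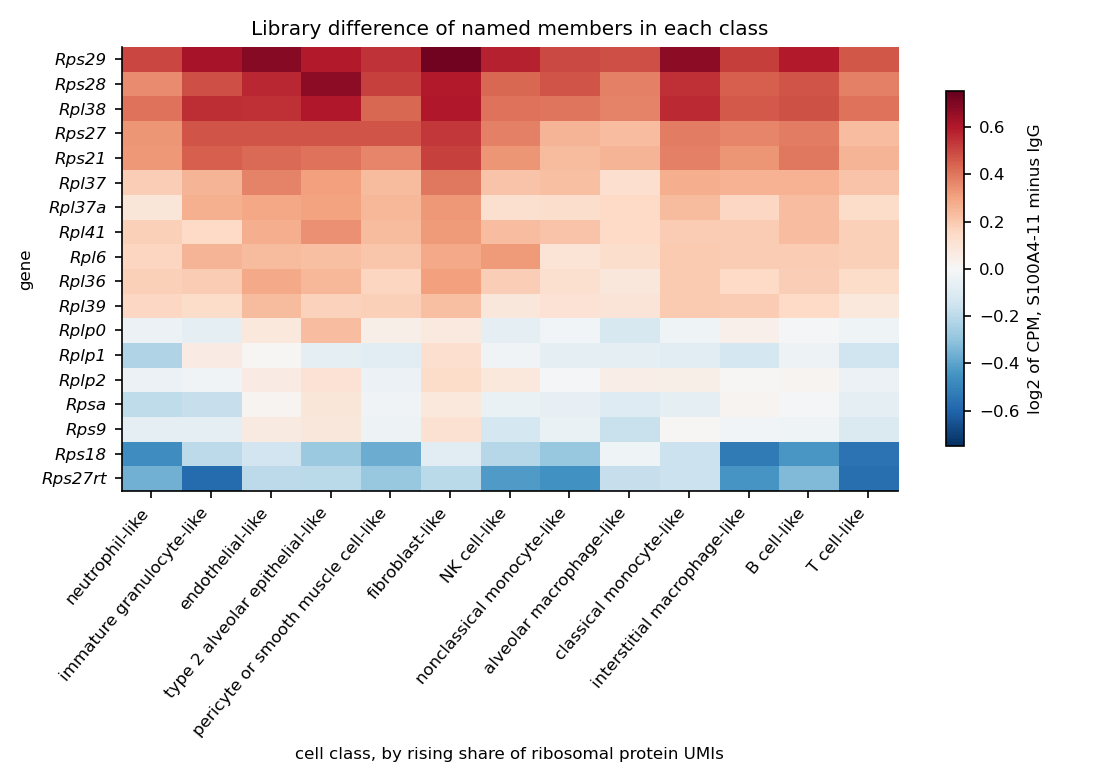
Difference in log2 CPM, S100A4-11 minus IgG (colour), for 18 members (rows) in 13 cell classes (columns, by rising share of ribosomal protein UMIs). Red marks higher levels in the S100A4-11 library: the top 11 genes are red in every class, while Rps18 and Rps27rt are blue in every class.

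Rps27rt and Rps18 lay on the other side. Rps27rt, annotated as a single-exon copy of Rps27 on chromosome 9, held 169 and 153 CPM over all cells, a ratio of 0.905 (0.881 to 0.929). Its ratio was below 1 in all 13 classes, from 0.667 in immature granulocyte-like to 0.894 in classical monocyte-like cells, and the interval was below 1 in 12. In T cell-like cells it held 668 and 451 CPM (0.676, 0.628 to 0.727). Its annotated coding length, 252 nucleotides, equals that of Rps27, which was higher in all 13 classes. The ratios of the copies thus lay on opposite sides of 1 in each. Rps18, of the small subunit, held 92.7 and 83.7 CPM over all cells, with ratios from 0.682 in T cell-like to 0.977 in alveolar macrophage-like cells. Its interval was below 1 in only 6 of 13 classes. The counting of reads shared between near-identical copies is not given in the sources used here, so the levels of Rps27, Rps27rt and Rps18 are uncertain.

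Rpl35a and Rpl35, both of the large subunit, had an interval above 1 in 12 of 13 classes, with ratios of up to 1.29 and 1.23. The stalk genes and Rpsa had small ratios of either sign. Rplp0, Rplp1 and Rplp2 form the stalk of the large subunit that recruits elongation factors. Rplp0 held 1903 and 2208 CPM over all cells, with class ratios from 0.920 in alveolar macrophage-like to 1.17 in type 2 alveolar epithelial-like cells. Rplp1 ran from 0.855 in neutrophil-like to 1.09 in fibroblast-like cells, and Rplp2 from 0.969 to 1.10. Rpsa, a small-subunit protein also known as the laminin receptor precursor, ran from 0.877 in neutrophil-like to 1.07 in type 2 alveolar epithelial-like cells. The median log2 ratio of the members was 0.15 over all cells, where the median of all genes was -0.05. Above 0 were 81 of 85 members, where 41.1% of all genes were. By class it was 0.13 in fibroblast-like, 0.11 in type 2 alveolar epithelial-like and 0.10 in endothelial-like cells, where the all-gene medians were -0.04, -0.12 and -0.01. It was -0.07 in alveolar macrophage-like, -0.06 in T cell-like, -0.05 in nonclassical monocyte-like and -0.05 in neutrophil-like cells, where the all-gene medians were -0.03, -0.02, -0.04 and 0.02. In NK cell-like cells it was -0.009, against -0.017 for all genes. There 37 of 83 members lay above 0, where 47.7% of all genes did.

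The subunits moved alike. The 33 small-subunit genes had a ratio of 1.17 over all cells and the 52 large-subunit genes 1.15, and in fibroblast-like cells they had 1.14 and 1.13.

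The members higher in every class were short. With the 86 members split in quartiles of annotated coding length, a measure chosen after the data had been seen, the 22 shortest (75 to 357 nucleotides) had ratios of 1.09 to 1.26 over the 13 classes. The 64 longer members together had ratios of 0.940 (alveolar macrophage-like) to 1.09 (fibroblast-like), with an interval above 1 in 6 classes and below 1 in 5. In T cell-like cells the shortest members together had a ratio of 1.10 (1.09 to 1.10) and the longer ones 0.954 (0.951 to 0.958). In endothelial-like cells the values were 1.23 (1.23 to 1.24) and 1.07 (1.06 to 1.07). Of the 11 members with an interval above 1 in all classes, Rpl6, with 888 nucleotides, was the only one outside the shortest quartile. The summed ratio of that quartile thus includes most members already named as higher in every class. Its other members were often near or below 1. Rps27rt and Rps27l, with 252 nucleotides each, and Rplp1, with 342, had median ratios of 0.794, 0.969 and 0.954. Rps20, Rplp2, Rpl34, Rps26 and Rpl36al had 1.01 to 1.02, and Rpl30 and Rpl36a 1.04. Genes outside the group with the same range of coding length had class medians of -0.04 to 0.11 in log2 ratio, against 0.07 to 0.26 for the 22 shortest members measured. Across members, Spearman's rho between coding length and log2 ratio ran from -0.485 to -0.226 over the classes, and with whole transcript length from -0.33 to -0.113; the classes share libraries, so this is a description.

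**Figure D3:**
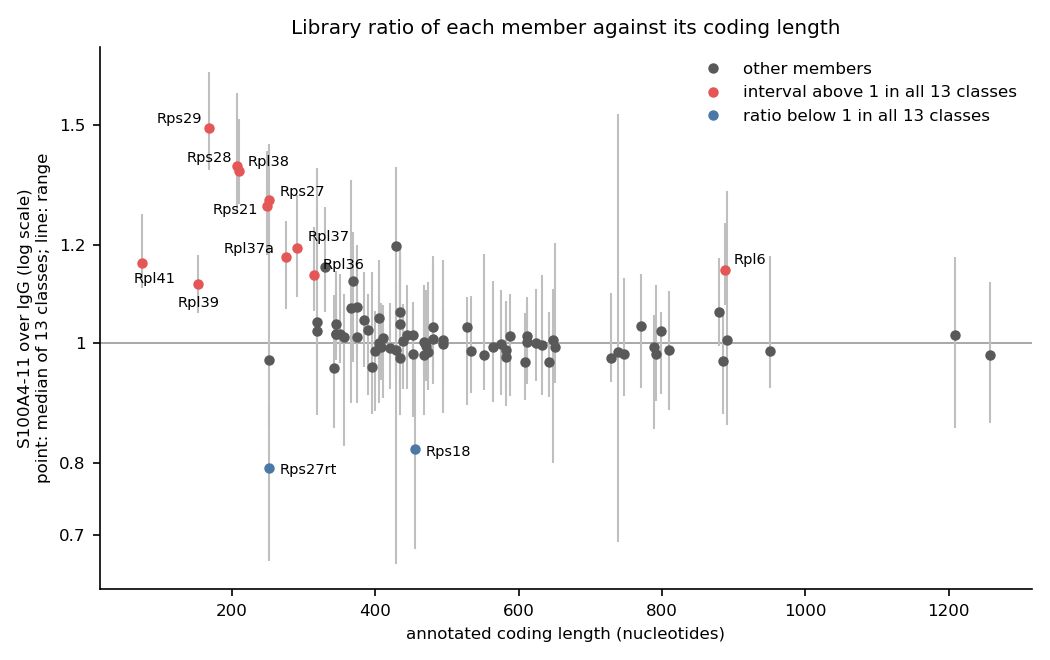
Ratio S100A4-11 over IgG (vertical, log scale) against annotated coding length in nucleotides (horizontal) for members measured in all 13 classes. Points are the median of 13 classes and lines their range; Rps29, Rps28 and Rpl38 lie at 1.38 to 1.49 with 168 to 210 nucleotides, and Rps18 and Rps27rt lie under 1.

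Classes differed in which ribosomal protein genes made up their share, and this was read in each library apart. The libraries are from different antibody groups and were clustered together, so they are not replicates. For 77 members with at least 100 UMIs in every class and library, the share of ribosomal protein UMIs was set against its median over classes. Over those members, the log2 values of the libraries correlated with Pearson's r of 0.882 to 0.995 by class, without a test. The spread over members was widest in neutrophil-like (SD of log2 0.78 and 0.83) and immature granulocyte-like cells (0.57 and 0.52), against 0.14 in interstitial macrophage-like cells in both libraries.

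Rps9, a small-subunit protein, varied most. It was 13.9% of ribosomal protein UMIs in IgG neutrophil-like cells and 13.1% in S100A4-11 neutrophil-like cells, 9.85% and 8.84% in immature granulocyte-like cells, and 1.66% to 3.26% in every other class. As a level it held 2882 and 2742 CPM in neutrophil-like cells, within its range over all classes of 1397 to 5429 CPM, while most members were far lower there. Rps27a, a fusion of ubiquitin and a small-subunit protein, was 4.29% and 4.15% of ribosomal protein UMIs in neutrophil-like cells, 2.41 and 2.39 times its class median. Rps27 was 3.98% and 4.96%, and Rplp0 was highest in immature granulocyte-like cells at 4.54% and 4.08%.

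The other 9 of the 10 most variable members were all lowest in neutrophil-like cells. Rpl10a stood there at 0.202 and 0.166 times its class median, Rpl3, a core protein of the peptide-bond centre, at 0.264 and 0.223 times, Rpl36al at 0.255 and 0.222 times and Rpl12, at the base of the stalk, at 0.354 and 0.331 times. Rpl32 stood at 0.316 and 0.307 times, Rpl36a at 0.335 and 0.349 times, Rpsa at 0.369 and 0.344 times, Rps20 at 0.412 and 0.353 times and Rps19, the gene mutated most often in Diamond-Blackfan anaemia, at 0.436 and 0.395 times. Small-subunit UMIs exceeded large-subunit UMIs in granulocyte classes, by 1.07 and 1.06 times in neutrophil-like and 1.04 and 1.02 times in immature granulocyte-like cells. In the other 11 classes the small to large ratio was 0.729 to 0.912. The excess rested on Rps9: without it, a comparison added after the data had been seen, the ratio was 0.785 and 0.794 in neutrophil-like and 0.842 and 0.844 in immature granulocyte-like cells, within the range of 0.698 to 0.878 that the other classes then had.

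**Figure D4:**
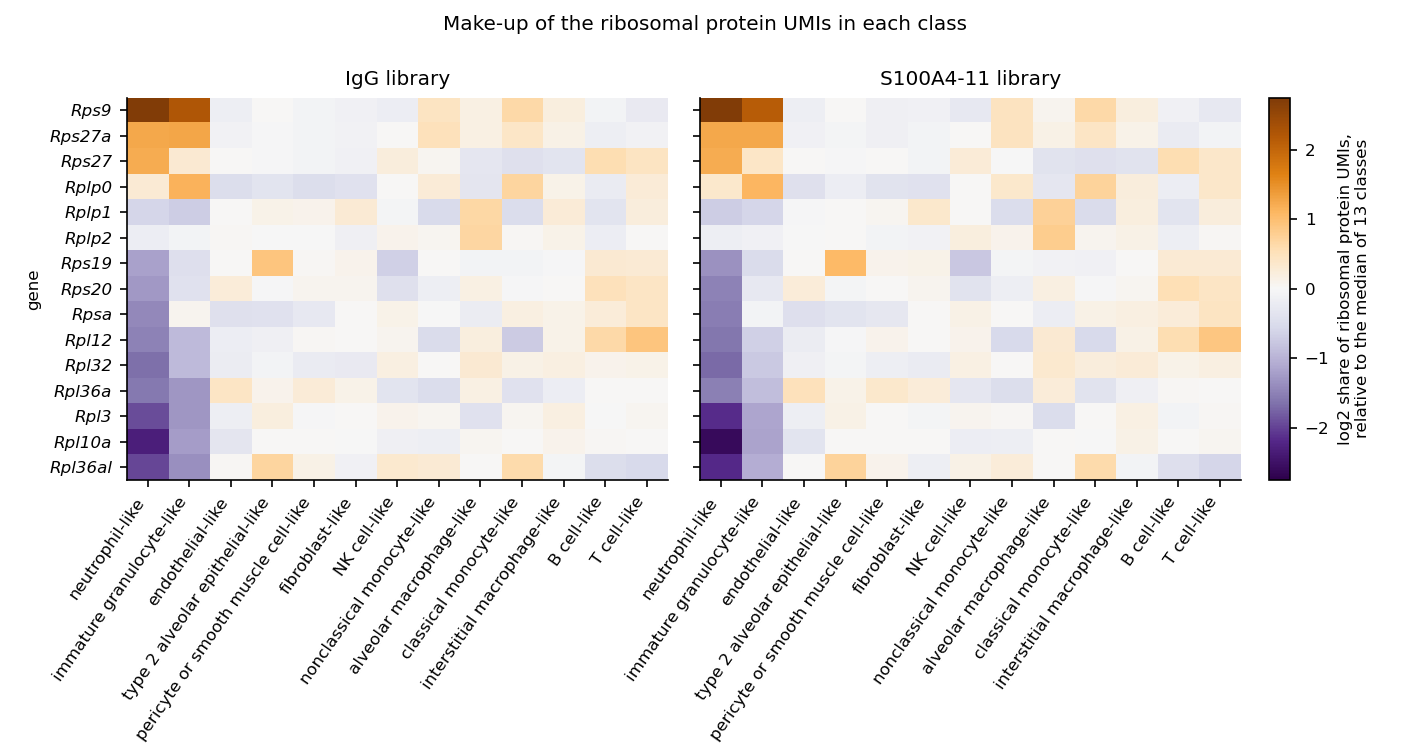
Share of each of 15 members (rows) in the ribosomal protein UMIs of 13 classes (columns), as log2 relative to its median over classes, in the IgG (left) and S100A4-11 (right) library. Orange is higher and purple lower: Rps9 and Rps27a are orange and Rpl3, Rpl10a and Rpl36al purple in both granulocyte classes, and the panels look alike.

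Without the granulocyte classes, a set chosen after the data had been seen, 3 of those 10 members remained among the most variable. Rps19 was 2.57% and 2.74% of ribosomal protein UMIs in type 2 alveolar epithelial-like cells and 0.873% and 0.766% in NK cell-like cells. Rpl12 was 0.654% and 0.605% in T cell-like and 0.212% and 0.222% in classical monocyte-like cells. Rpl36al was 0.651% and 0.650% in type 2 alveolar epithelial-like and 0.271% and 0.262% in T cell-like cells. Rplp1 was highest in alveolar macrophage-like cells at 2.12% and 2.05%, where Rplp2 was also highest at 1.37% and 1.44%. Among these classes Rplp0 was highest in classical monocyte-like cells, at 3.34% and 3.10%.

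Paralogs of ribosomal protein genes differed in where they were found. Rpl22l1, a relative of Rpl22 studied in T cell development, was highest in T cell-like cells at 1217 and 1206 CPM and lowest in neutrophil-like cells at 50.8 and 55.9 CPM. In immature granulocyte-like cells Rpl22l1 held 53.1 and 71.9 CPM, a ratio of 1.35 (1.11 to 1.65), and in nonclassical monocyte-like cells 493 and 441 CPM (0.894, 0.832 to 0.961). Rps27l, a p53-responsive relative of Rps27, was highest in alveolar macrophage-like cells at 327 and 314 CPM and held 72.2 and 63.1 CPM in T cell-like cells. Rpl36al, a copy of Rpl36a, was highest in classical monocyte-like cells at 849 and 884 CPM.

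Rpl3l, known as the muscle counterpart of Rpl3, was found mainly in myeloid classes. It held 19.5 and 28.2 CPM in nonclassical monocyte-like cells (61 and 93 UMIs), 16.7 and 13.4 CPM in alveolar macrophage-like cells (108 and 57 UMIs) and 10.6 and 14.8 CPM in neutrophil-like cells (103 and 118 UMIs). In endothelial-like cells it had 8 and 6 UMIs, in T cell-like cells 1 in each library and in NK cell-like cells none. Its nonclassical monocyte-like ratio was 1.45 (1.04 to 2.03). Rpl39l, known from testis, had 22 and 11 UMIs in alveolar macrophage-like cells, of 33 and 24 in all cells. Rpl10l, known as a testis copy of Rpl10, had no UMI in either library.

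Rpl7l1 was the other member past 1.5-fold, in neutrophil-like cells, at 5.98 and 9.15 CPM (58 and 73 UMIs, ratio 1.53, 1.07 to 2.20), where 2.15% of all genes were higher. It was lower in T cell-like cells, at 41.8 and 28.9 CPM (0.692, 0.513 to 0.930). Rps19bp1 held 22.6 and 22.9 CPM over all cells.

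**Figure D5:**
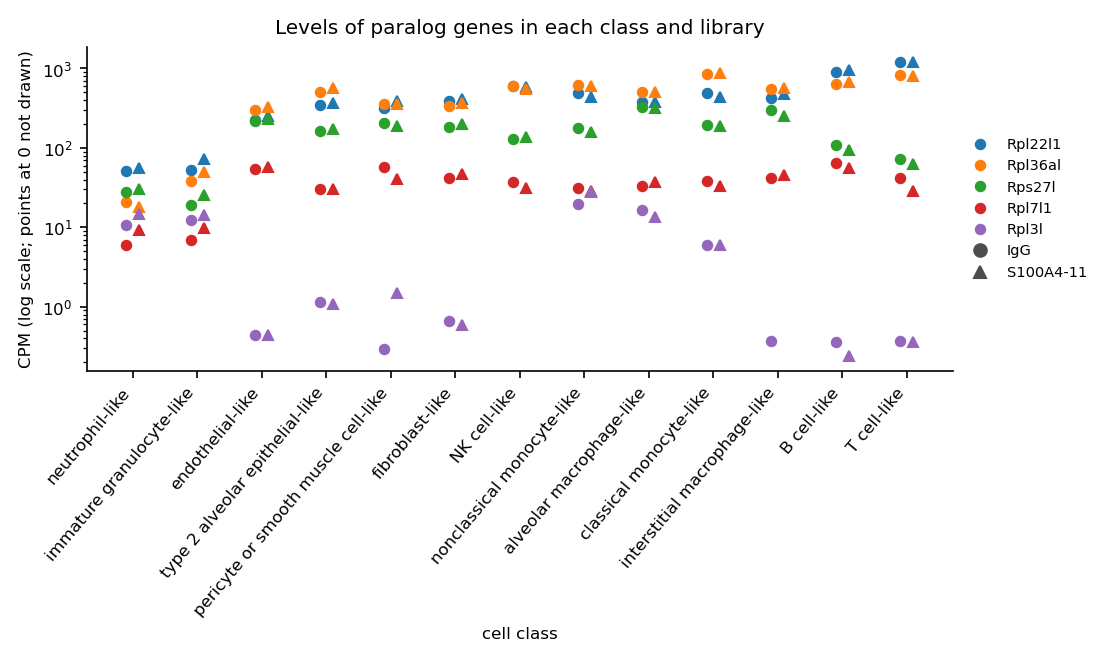
CPM (vertical, log scale; levels at 0 are not drawn) of 5 paralog members in 13 classes (horizontal); circles are the IgG and triangles the S100A4-11 library. Rpl22l1 peaks in T cell-like cells near 1200 CPM, and Rpl3l lies between 5.95 and 28.2 CPM in the monocyte, alveolar macrophage and granulocyte classes and under 1.5 CPM in the others.

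Genes that work with the ribosome were described from lists. Of 19 measured elongation factors and other known TOP messages, none was past 1.5-fold in either direction in any class. Of all pairs of gene and class, 2.06% were higher and 4.25% lower. The median log2 ratio of these messages was 0.10 over all cells, -0.07 in T cell-like and 0.08 in fibroblast-like cells. Eef1a1, the main elongation factor, was 9693 and 9109 CPM in T cell-like cells (0.940, 0.924 to 0.956).

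Ribosome biogenesis genes had a median log2 ratio above that of all genes in 12 of 13 classes. It was 0.19 against -0.02 in NK cell-like, 0.11 against -0.03 in alveolar macrophage-like and 0.07 against -0.04 in fibroblast-like cells. In T cell-like cells it was barely above, at -0.019 against -0.022. The exception was type 2 alveolar epithelial-like cells, at -0.124 against -0.121. In NK cell-like cells only 2 of 37 measured genes had an interval above 1. Over all cells none of 39 was past 1.5-fold, where 2.88% of all genes were higher and 7.81% lower. The median log2 ratio was 0.08, against -0.05 for all genes. Over the classes 9 of 479 pairs of gene and class were past 1.5-fold higher and 7 lower, where 2.06% and 4.25% of all pairs were; of the higher ones 3 were in immature granulocyte-like and 2 in neutrophil-like cells. Nop56, of the small nucleolar ribonucleoproteins, held 36.7 and 46.1 CPM over all cells (1.26, 1.19 to 1.32), and its partner Nop58 60.1 and 48.8 CPM (0.813, 0.776 to 0.852). In endothelial-like cells Nop58 was the 1 of 39 past 1.5-fold lower, where 4.27% of all genes were, at 73.4 and 48.7 CPM. In T cell-like cells 2 of 39 were past 1.5-fold lower, where 2.73% of all genes were, among them Polr1a, the catalytic subunit of RNA polymerase I, at 29.0 and 17.1 CPM.

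Of 20 regulators of TOP translation and ribosome synthesis none was past 1.5-fold over all cells, where 2.88% of all genes were higher and 7.81% lower. The transcription factor Myc held 33.3 and 47.9 CPM over all cells (1.44, 1.36 to 1.52) and 67.0 and 97.0 CPM in T cell-like cells (1.45, 1.19 to 1.76). Rptor, the mTOR partner, held 39.4 and 33.0 CPM over all cells (0.838, 0.791 to 0.887). In immature granulocyte-like cells 5 of 16 measured regulators were past 1.5-fold higher, where 4.18% of all genes were. No other class had more than 1 higher or more than 1 lower, where 2.06% and 4.25% of all pairs of gene and class were. Of 78 mitochondrial ribosomal protein genes none was past 1.5-fold over all cells, with the same backgrounds. By class at most 2 were higher, in neutrophil-like (2.15% of all genes) and type 2 alveolar epithelial-like cells (2.35%). At most 3 were lower, in interstitial macrophage-like (2.84%) and nonclassical monocyte-like cells (3.63%). Over all cells the mitochondrial median log2 ratio was 0.02, against 0.15 for the cytosolic group. Within classes the 2 groups were often closer. The mitochondrial median was 0.11 in endothelial-like and 0.12 in fibroblast-like cells, against 0.10 and 0.13 for the cytosolic group. In type 2 alveolar epithelial-like cells it was -0.001 against 0.11.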

How the data were processed

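The deposited files are gene by barcode matrices of UMI counts, per the file headers; per the labels' protocols cells were captured with the 10x Genomics 5′ kit and sequenced on DNBseq, and per the submitters' processing notes the authors used Cell Ranger 7.1.0 and build mm10. Other deposited files hold only feature and barcode names. Cells with under 200 genes or over 15% mitochondrial UMIs, and Scrublet doublets (627 and 615; Scanpy 1.11.5), were removed; no correction for free RNA was made. Both libraries were clustered together (2000 variable genes without ribosomal protein, mitochondrial, haemoglobin and receptor segment genes, 30 components, 15 neighbours, Leiden resolution 1). A cluster took a class with at least 3 markers in 25% of its cells at 2-fold other cells, a rule settled with the clusters in view. UMIs were summed per class and library. Ratios have exact conditional intervals and shares exact binomial ones; log2 ratios used a pseudocount of 0.5. Named genes were members past 1.5-fold, the 10 most variable in composition, the stalk genes, Rpsa, the paralogs and up to 4 genes per list; others, such as Rps21 and Rps18, were chosen after their values were seen. Coding and transcript lengths and exon numbers are from GENCODE M21, and start windows from RefSeq. Some items are not reported here. The members and lists were chosen with earlier results of these data known. Steps were tested on simulated data. Trimmed-mean factors came from edgeR 4.0.16.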

Additional observations from a re-analysis of the deposited data

Results flagged for a closer look

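Rpl7l1 differed in direction between classes: its ratio was 1.53 in neutrophil-like and 0.692 in T cell-like cells, with intervals of 1.07 to 2.20 and 0.513 to 0.930. The difference between the classes was not tested, and it rests on 58 and 73 UMIs in neutrophil-like and 111 and 81 UMIs in T cell-like cells.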

How the results depend on the processing

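No paired analysis was possible because each group has 1 library, and no library could be left out. Small differences in share depended on the handling of cells. With clusters weighted alike in both libraries the share ratio was 1.04 over all cells, 0.997 in alveolar macrophage-like, 1.08 in endothelial-like, 1.03 in fibroblast-like, 1.004 in neutrophil-like, 1.02 in nonclassical monocyte-like and 1.05 in pericyte or smooth muscle cell-like cells.
With cells thinned to 500 UMIs the ratios were 1.18 over all cells, 1.08 in B cell-like, 0.983 in alveolar macrophage-like, 1.06 in classical monocyte-like, 1.14 in endothelial-like, 1.12 in fibroblast-like, 1.05 in immature granulocyte-like, 1.06 in interstitial macrophage-like, 1.02 in neutrophil-like, 1.13 in pericyte or smooth muscle cell-like and 1.18 in type 2 alveolar epithelial-like cells, and they reversed in T cell-like (1.01) and nonclassical monocyte-like cells (0.969).
With every cell weighing the same they were 1.18 over all cells, 1.08 in B cell-like, 1.04 in NK cell-like, 1.15 in endothelial-like, 1.12 in fibroblast-like, 1.04 in immature granulocyte-like, 1.06 in interstitial macrophage-like, 1.03 in neutrophil-like, 1.15 in pericyte or smooth muscle cell-like and 1.14 in type 2 alveolar epithelial-like cells, and reversed in T cell-like (1.01) and nonclassical monocyte-like cells (0.966). The members' median log2 ratio was then 0.18 over all cells, 0.14 in endothelial-like, -0.11 in nonclassical monocyte-like and 0.14 in pericyte or smooth muscle cell-like cells.
With doublets kept the ratios were 1.16 over all cells, 1.06 in NK cell-like, 0.996 in alveolar macrophage-like, 1.11 in endothelial-like, 1.16 in fibroblast-like, 1.04 in interstitial macrophage-like and 1.11 in type 2 alveolar epithelial-like cells, and reversed in T cell-like (1.02), immature granulocyte-like (0.997) and nonclassical monocyte-like cells (0.997); the T cell-like median log2 ratio was -0.019, and 3 pairs of member and class were past 1.5-fold lower.
At Leiden resolution 0.5 the ratios were 1.07 in NK cell-like, 0.980 in T cell-like, 1.11 in endothelial-like, 1.12 in fibroblast-like, 1.05 in immature granulocyte-like, 1.05 in interstitial macrophage-like, 1.0004 in neutrophil-like, 1.03 in nonclassical monocyte-like and 1.11 in type 2 alveolar epithelial-like cells, and no classical monocyte-like class was found. At resolution 2 they were 1.03 in B cell-like, 1.08 in immature granulocyte-like, 1.07 in pericyte or smooth muscle cell-like and 1.10 in type 2 alveolar epithelial-like cells, and reversed in nonclassical monocyte-like cells (0.990).
With at least 500 genes per cell they were 0.976 in T cell-like, 0.993 in alveolar macrophage-like, 1.04 in classical monocyte-like, 1.01 in immature granulocyte-like, 1.05 in interstitial macrophage-like and 1.02 in nonclassical monocyte-like cells.
Trimmed-mean (TMM) scaling gave median log2 ratios of 0.20 over all cells, 0.068 in B cell-like and 0.24 in type 2 alveolar epithelial-like cells and 1 pair past 1.5-fold lower; totals without ribosomal protein genes gave 0.18 over all cells. At 1.2-fold, 14 members were higher over all cells, and 94 pairs were higher and 17 lower. Without the granulocyte classes 3 of the 10 most variable members remained. Without Rps9 the small to large subunit ratio reversed, to 0.785 and 0.794 in neutrophil-like and 0.842 and 0.844 in immature granulocyte-like cells. The cause of the other shifts was not tested. Depth limits Rpl3l, Rpl39l and Rpl7l1, which rest on few UMIs.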
